A study of Mus musculus with 13 samples.

Results

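The Gimap genes encode the GTPases of immunity-associated proteins, small GTP-binding proteins of lymphocytes. All 8 members named Gimap1, Gimap3, Gimap4, Gimap5, Gimap6, Gimap7, Gimap8 and Gimap9 were measured, among 19752 genes on the array. They were taken by gene name from the probe set annotation, with no threshold on their values, and the choice of this family was made with earlier results of these data known. Each member had 1 probe set that the annotation gives to that gene alone.

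The series measured RNA of thymocytes sorted from 2-week-old mice, with 1 Affymetrix gene array per sample and 13 arrays. The mice were labelled as Sox4 conditional knockout (cKO) or wild type (WT), Sox4 being an HMG box transcription factor of early lymphocytes. V2 cells are γδ thymocytes stained for TCRδ and for its partner chain Vγ2, high for the immaturity antigen HSA (the product of Cd24a) and negative for both coreceptors. DP cells carry both coreceptors, CD4 and CD8, on their way to becoming αβ T cells. The labels give 4 V2 cKO, 4 V2 WT, 3 DP cKO and 2 DP WT arrays. V2 samples have titles of 2 forms, called V2imm and immV2 here, and the labels do not say what sets the forms apart. The sources used here give neither the Cre line that deletes Sox4 nor whether replicates were separate animals. P-values therefore reflect only how these samples vary, in part perhaps for technical reasons, and precision is limited by how few arrays there are.

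Population markers set 2 arrays apart from their labels. DP cKO replicate 5 had a summed intensity of 2181 over 8 double positive markers, against 33114 to 39027 in the other 4 DP arrays, and 13318 over 6 γδ markers, against 873 to 1002. V2 WT replicate 5 (immV2) had 38613 over the double positive markers, against 2165 to 2943 in the other 7 V2 arrays, and 1035 over the γδ markers, against 4647 to 12357. Both arrays keep their labels and are shown apart, and the other 11 (4 V2 cKO, 3 V2 WT, 2 DP cKO and 2 DP WT) carry the comparisons unless 13 arrays are named. Sox4 itself was 8.07, 9.60, 8.11 and 8.23 on the log2 scale in V2 cKO arrays, against 8.71, 8.64 and 9.68 in V2 WT arrays. It was 8.74 and 8.68 in DP cKO arrays, against 9.37 and 8.55 in DP WT arrays. Sox4 differed between cKO and WT by -0.51 in V2 (SE 0.38, limma adjusted p = 0.999) and by -0.25 in DP (SE 0.49, adjusted p = 1). The sources used here do not say whether the Sox4 probe set lies in the deleted part, so these values may check nothing about the labels.

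Gimap proteins sit on intracellular membranes by a carboxy-terminal anchor or are soluble, and are distantly related to septins. They are best known for the survival of T cells: mice and rats without Gimap5 lose peripheral T cells. In the thymus, members of the family are known to change in level as thymocytes pass the double positive stage and mature. In bulk samples such as these, fewer cells of a type and less RNA per cell cannot be told apart.

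The 8 genes lie side by side on mouse chromosome 6, at chr6:48647186-48770851 in GRCm38.p6, over 123.7 kb. Their order along the chromosome is Gimap8, Gimap9, Gimap4, Gimap6, Gimap7, Gimap1, Gimap5 and Gimap3, with 6 on the plus strand and 2, Gimap6 and Gimap3, on the minus strand. Gimap3 and Gimap5 are close paralogs, so hybridisation of one gene's RNA to the other's probes is possible and was not tested. Their separate values are uncertain to that extent.

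Promoter windows from RefSeq, 250 bases before to 50 after each annotated start in GRCm38.p6, were available for all 8 members as 9 windows, Gimap8 having 2. The windows of Gimap3, Gimap4 and Gimap5, the members that differed between the populations, are printed with that of Gimap6, whose levels were close in all groups. Each is written 5′ to 3′ on the strand of its gene, and capitals mark a Runx motif (TGTGGT, or ACCACA on the other strand) or an Ets motif (AGGAAG, or CTTCCT on the other strand). The windows are chr6:48770802-48771101 on the minus strand for Gimap3, chr6:48684328-48684627 on the plus strand for Gimap4, chr6:48745947-48746246 on the plus strand for Gimap5 and chr6:48708195-48708494 on the minus strand for Gimap6.
Gimap3: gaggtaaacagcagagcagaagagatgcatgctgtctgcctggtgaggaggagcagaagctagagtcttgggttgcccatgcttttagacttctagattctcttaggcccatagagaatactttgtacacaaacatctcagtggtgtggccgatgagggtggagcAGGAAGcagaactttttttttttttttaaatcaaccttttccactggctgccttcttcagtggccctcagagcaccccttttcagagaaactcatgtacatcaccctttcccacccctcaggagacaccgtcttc
Gimap4: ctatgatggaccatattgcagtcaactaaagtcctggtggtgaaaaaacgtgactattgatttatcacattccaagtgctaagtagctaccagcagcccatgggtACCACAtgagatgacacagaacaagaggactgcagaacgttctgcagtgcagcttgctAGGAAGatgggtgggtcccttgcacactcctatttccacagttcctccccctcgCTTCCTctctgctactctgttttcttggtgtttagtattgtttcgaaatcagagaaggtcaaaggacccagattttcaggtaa
Gimap5: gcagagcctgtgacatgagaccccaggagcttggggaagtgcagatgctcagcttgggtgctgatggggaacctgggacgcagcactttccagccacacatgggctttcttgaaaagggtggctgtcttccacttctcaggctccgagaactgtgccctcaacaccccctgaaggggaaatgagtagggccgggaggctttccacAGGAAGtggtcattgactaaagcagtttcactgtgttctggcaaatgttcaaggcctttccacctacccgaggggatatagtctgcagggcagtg
Gimap6: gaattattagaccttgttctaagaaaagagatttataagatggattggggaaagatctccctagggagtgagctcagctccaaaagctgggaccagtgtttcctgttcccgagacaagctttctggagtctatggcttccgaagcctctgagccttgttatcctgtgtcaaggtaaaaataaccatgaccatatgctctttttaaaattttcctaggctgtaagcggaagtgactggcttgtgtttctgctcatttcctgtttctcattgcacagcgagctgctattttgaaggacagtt

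Searched on both strands, the Ets motif AGGAAG was in 7 of the 9 windows, covering 7 of the 8 members, and in 35.4% of all 32851 promoter windows. Gimap6 was the member whose window lacked AGGAAG on both strands, and Gimap8 had it in 1 of its 2 windows. The motif was also in Gimap1, Gimap7 and Gimap9, which like Gimap8 did not pass the test between the populations. Other letters that Ets factors can bind were not searched, so Gimap6 may hold such letters. In Gimap3 the Ets letters began 85 bases before the annotated start, in Gimap5 45 bases before it, and in Gimap4 both 87 and 33 bases before it. The Runx motif TGTGGT was in 3 windows, those of Gimap4, Gimap7 and Gimap1, and in 16.8% of all windows. In Gimap4 it began 145 bases before the start. The letters AACAAAG, which Sox and TCF factors bind, were in 0 of the 9 windows and in 5.85% of all windows. The E protein motif CAGGTG was in 1 member window, that of Gimap9, and in 20.2% of all windows. The GATA motif AGATAA was in 0 member windows and in 11.2% of all windows. No motif searched overlapped another by its letters in the windows printed. A match is a description of the letters in these windows, and says nothing about binding.

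Gimap4, which in mice speeds the death of T cells once it has been set off, had the widest gap between the populations among the 8 members. Its log2 intensity was 9.72, 9.73, 10.28 and 10.33 in V2 cKO arrays, against 9.65, 9.36 and 10.48 in V2 WT arrays. In DP arrays it was 6.28 and 5.93 in cKO, against 5.80 and 5.90 in WT. Every V2 array was above every DP array, by at least 3.08 log2 units, and DP WT replicate 3 was below the lower quartile of all probe sets on its array. V2 was higher than DP by 3.91 in cKO cells (SE 0.18, limma adjusted p = 2.4e-08) and by 4.10 in WT cells (SE 0.19, adjusted p = 3.1e-08) on the log2 scale. The deposited values carry no detection call, so whether the DP level is above background is not known, and no fold is given for Gimap4 or Gimap3 between the populations. All V2 minus DP and cKO minus WT differences take the V2 title sets into account, while group means are plain averages over arrays, with 2 V2imm and 2 immV2 arrays in V2 cKO and 2 and 1 in V2 WT. The order of group means was V2 cKO (10.01 ± 0.34, SD, n = 4), V2 WT (9.83 ± 0.58, n = 3), DP cKO (6.10 ± 0.24, n = 2) and DP WT (5.85 ± 0.07, n = 2). Within each population the genotypes next to each other in this order did not pass the test, while the step between V2 WT and DP cKO was wider than any spread within a group.

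Gimap3, a mouse paralog of Gimap5 linked to the segregation of mitochondrial DNA in blood cells, was also higher in V2. It was 6.08, 6.97, 8.87 and 9.49 in V2 cKO arrays, against 7.09, 6.95 and 8.21 in V2 WT arrays. In DP arrays it was 5.78 and 5.54 in cKO, against 5.06 and 5.33 in WT. All 4 DP arrays were below the lower quartile of their own array, and so was V2 cKO replicate 4 (V2imm), whose 6.08 was only 0.29 above the highest DP value. V2 exceeded DP by 2.19 log2 units in cKO cells (SE 0.32, adjusted p = 9.8e-04) and by 2.57 in WT cells (SE 0.34, adjusted p = 4.7e-04). Without the covariate for the title set these differences were 2.19 in cKO cells (adjusted p = 0.191) and 2.22 in WT cells (adjusted p = 0.221), and with the V2imm arrays alone the cKO difference was 0.87 (adjusted p = 0.103). Group means ran in the order V2 cKO (7.85 ± 1.60), V2 WT (7.42 ± 0.69), DP cKO (5.66 ± 0.18) and DP WT (5.20 ± 0.19), and neither genotype step within a population passed the test. With the title sets taken into account the V2 step was 0.09 (SE 0.29), so the size of that step depends on how the sets are mixed.

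Gimap5, required for the survival of peripheral T cells, was 8.56, 8.83, 9.37 and 9.46 in V2 cKO arrays, against 8.97, 8.89 and 9.22 in V2 WT arrays. In DP arrays it was 7.54 and 7.30 in cKO, against 7.54 and 8.01 in WT. The lowest V2 array was 0.55 above the highest DP array. V2 exceeded DP by 1.64 in cKO cells (SE 0.19, 3.11-fold, adjusted p = 1.5e-04) and by 1.35 in WT cells (SE 0.20, 2.55-fold, adjusted p = 0.0012). Means were 9.06 ± 0.43 in V2 cKO, 9.03 ± 0.17 in V2 WT, 7.42 ± 0.17 in DP cKO and 7.77 ± 0.33 in DP WT, which puts DP cKO lowest. The V2 genotypes changed places with the title sets taken into account (-0.07, SE 0.17), and the genotypes next to each other within a population did not pass the test.

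**Figure D1:**
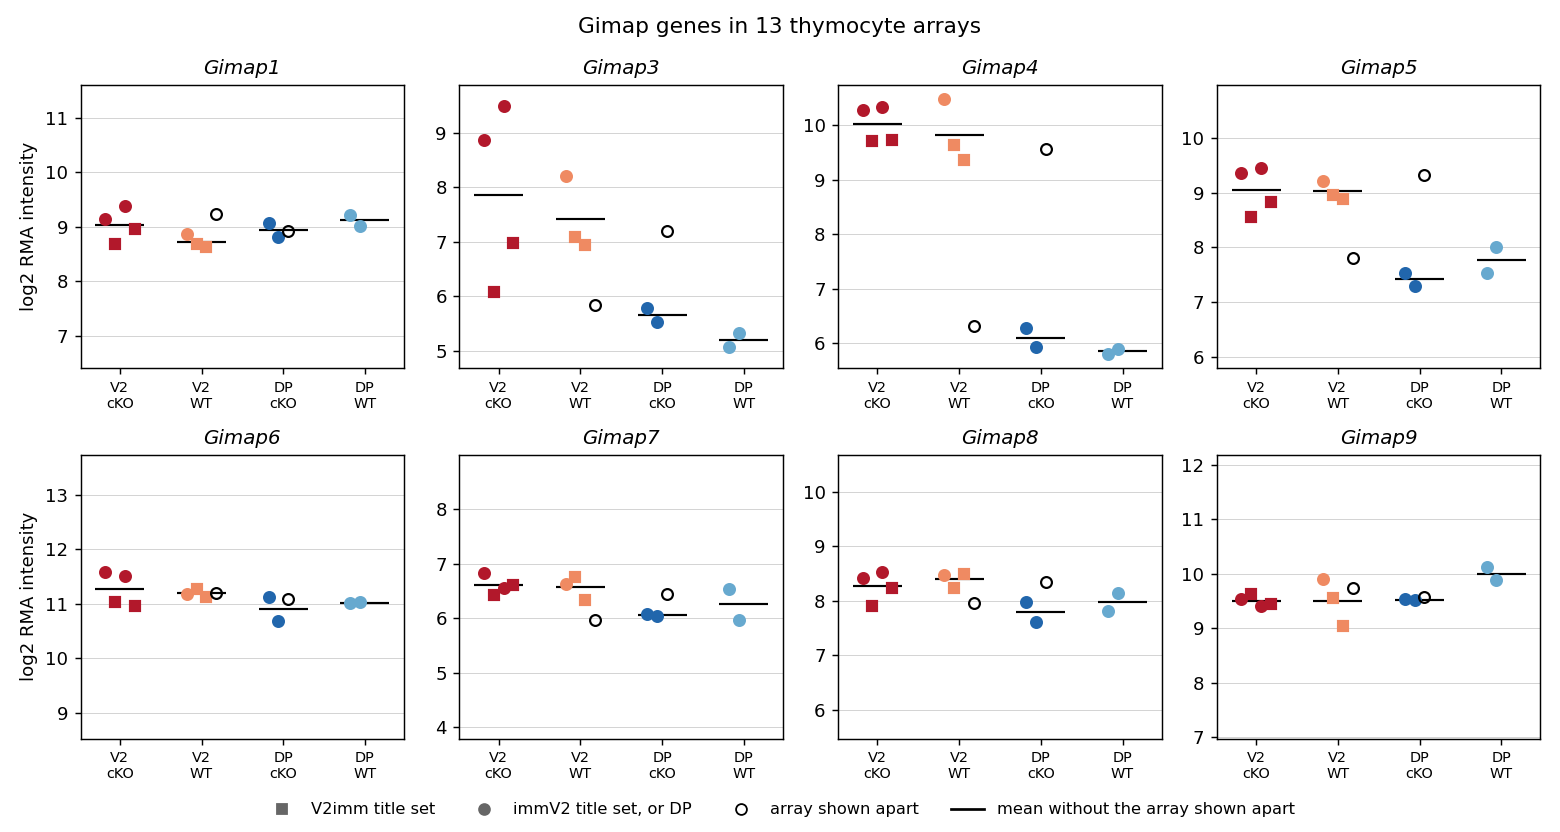
Log2 RMA intensity (vertical axis) of each Gimap gene in V2 cKO, V2 WT, DP cKO and DP WT arrays (horizontal axis, left to right); filled points are arrays, open points the 2 arrays shown apart, and bars the means without them. The V2 points of Gimap3, Gimap4 and Gimap5 lie above all filled DP points, and the open points of these genes lie on the other population's side.

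The other 5 members did not pass the threshold between the populations in either genotype. Gimap1, needed in mice for the development and survival of mature T and B lymphocytes, ran from 8.68 to 9.37 in V2 cKO arrays and from 8.63 to 8.86 in V2 WT arrays. It ran from 8.80 to 9.07 in DP cKO arrays and from 9.02 to 9.21 in DP WT arrays. Its V2 minus DP difference was 0.10 (SE 0.18) in cKO cells and -0.33 (SE 0.19) in WT cells. The means were 9.04 ± 0.29 in V2 cKO, 8.72 ± 0.12 in V2 WT, 8.94 ± 0.19 in DP cKO and 9.11 ± 0.14 in DP WT, so that DP WT was highest and V2 WT lowest.

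Gimap6, a partner of the autophagy protein GABARAPL2, stayed within 10.68 and 11.58 over all 11 arrays. Its means were 11.28 ± 0.32 in V2 cKO, 11.19 ± 0.07 in V2 WT, 10.90 ± 0.31 in DP cKO and 11.02 ± 0.02 in DP WT, and V2 exceeded DP by 0.38 (SE 0.20, adjusted p = 0.45) in cKO cells and 0.22 (SE 0.21, adjusted p = 0.823) in WT cells. Of the 7 V2 arrays, 5 lay above every DP array.

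Gimap7, whose human protein speeds GTP hydrolysis when it pairs with other family members, averaged 6.60 ± 0.16 in V2 cKO, 6.58 ± 0.21 in V2 WT, 6.06 ± 0.02 in DP cKO and 6.25 ± 0.41 in DP WT, with DP cKO lowest. Its V2 minus DP difference was 0.54 (SE 0.17, adjusted p = 0.106) in cKO cells and 0.35 (SE 0.18, adjusted p = 0.46) in WT cells.

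Gimap8, a long member with several GTPase domains in one chain, averaged 8.27 ± 0.27 in V2 cKO, 8.40 ± 0.14 in V2 WT, 7.79 ± 0.26 in DP cKO and 7.97 ± 0.23 in DP WT, with V2 WT highest and DP cKO lowest. The difference was 0.47 in both genotypes (SE 0.18, adjusted p = 0.222 in cKO; SE 0.20, adjusted p = 0.271 in WT), and 6 of 7 V2 arrays lay above every DP array.

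Gimap9, like Gimap1, had its highest mean in DP WT cells. It averaged 9.51 ± 0.10 in V2 cKO, 9.50 ± 0.44 in V2 WT, 9.53 ± 0.01 in DP cKO and 10.00 ± 0.17 in DP WT. Its V2 minus DP difference was -0.02 (SE 0.22, adjusted p = 0.99) in cKO cells and -0.47 (SE 0.23, adjusted p = 0.411) in WT cells, and 0 of 7 V2 arrays lay above every DP array. No comparison of genotypes or populations passed for these 5 genes, so their orders are a description. A p above the threshold does not show that they were level between the populations.

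Over the family, 3 of 8 members were called in cKO cells at an adjusted p below 0.05, all higher in V2, where 5.45% of the 19752 genes were called (3.5% higher and 1.94% lower). The same 3, Gimap3, Gimap4 and Gimap5, were called in WT cells, where 4.87% of genes were called (3.2% higher and 1.67% lower). The median difference over the members was 0.51 in cKO cells and 0.41 in WT cells, beside medians over all genes of -0.01 and -0.02. Every V2 array lay above every DP array for those 3 members and for 4.79% of all genes. With all 13 arrays as labelled, 0 members were called in either genotype by limma, and 2 had an unadjusted p below 0.05 in each. Of the 19752 genes, 1670 had an unadjusted p below 0.05 in cKO cells and 1672 in WT cells. Gimap4 differed by 2.76 in cKO cells (SE 0.93, adjusted p = 0.457) and by 3.10 in WT cells (SE 1.05, adjusted p = 0.472). In that fit 0.0354% of genes were called in cKO cells and 0.0557% in WT cells.

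**Figure D2:**
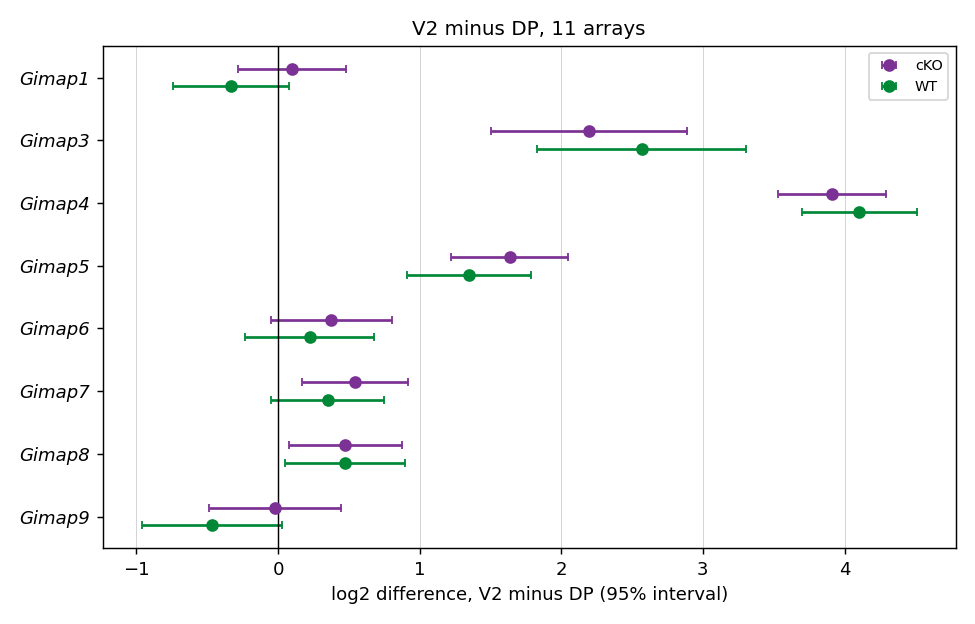
V2 minus DP difference in log2 intensity (horizontal axis) for each Gimap gene (vertical axis) in cKO and WT cells, with 95% intervals that are not adjusted for the number of genes, 11 arrays. Gimap4 lies near 4, Gimap3 and Gimap5 between 1.35 and 2.57, and the other 5 within 0.54 of 0.

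The 3 members that were higher in V2 are not all next to each other on the chromosome. Gimap4 lies between Gimap9 and Gimap6, neither of which passed the test, while Gimap5 and Gimap3 are the last in the row. Of 10 measured neighbours, the nearest 5 on each side of the cluster, 1 was called in cKO cells. This was Tmem176b, the gene of a membrane protein, higher in V2 by 1.43 (SE 0.35, limma adjusted p = 0.0296). It was 9.41, 9.93, 8.69 and 9.28 in V2 cKO arrays, against 7.28 and 8.52 in DP cKO arrays. In DP WT arrays it was 8.36 and 9.47, so V2 and DP arrays overlapped over both genotypes. In WT cells 0 of the 10 neighbours were called by limma.

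**Figure D3:**
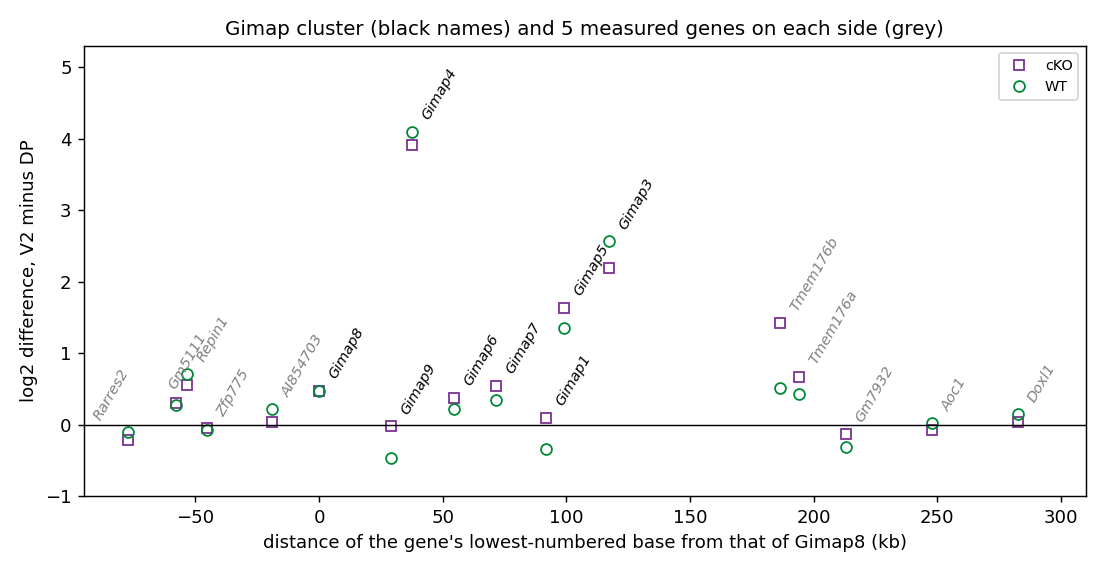
V2 minus DP difference in log2 intensity (vertical axis) against the distance of each gene from Gimap8 along the chromosome in kb (horizontal axis), in cKO and WT cells. Gimap4, Gimap3 and Gimap5 stand above the other members and above all 5 neighbours on the left. Members closer to 0 lie on both sides of Gimap4 and to the left of Gimap5, while Gimap3 lies next to Gimap5. On the right, Tmem176b reaches 1.43 in cKO cells.

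Lists of genes related to the family were set beside it. In cKO cells, 10 of 17 measured maturation and egress genes were higher in V2 and 0 lower. In WT cells 8 were higher and 1 was lower. These included Il7r, the interleukin-7 receptor (3.97, SE 0.23), S1pr1, the receptor that guides thymocytes out of the thymus (3.19, SE 0.33), and Ccr7, a chemokine receptor (2.67, SE 0.30), while the lower one was Cd28, a costimulatory receptor (-1.18, SE 0.29). Of 11 measured members of the Bcl2 family, which govern cell death and to which Gimap proteins have been linked, 1 was higher and 3 were lower in V2 in cKO cells, and 1 was higher and 2 were lower in WT cells. In WT cells Bcl2, which protects cells, was higher by 2.73 (SE 0.26, adjusted p = 2.6e-05), Bcl2l1, which protects DP cells, differed by -2.09 (SE 0.23, adjusted p = 8.1e-05), and Bmf, which promotes death, differed by -1.19 (SE 0.28, adjusted p = 0.0279).

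Of 7 genes of the ATG8 and GSK3 families, which include partners of Gimap proteins, not each gene being a known partner, 1 passed in cKO cells. This was Gabarapl1 (0.84, SE 0.20, limma adjusted p = 0.0265), and 0 passed in WT cells. Among 10 measured interferon-inducible GTPases, another family of immune GTPases, 5 were higher and 1 was lower in cKO cells, and 1 was higher and 1 lower in WT cells. Irgm1 was higher by 1.29 (SE 0.20) in cKO cells and 1.15 (SE 0.21) in WT cells, and Gbp8 differed by -1.26 (SE 0.21) in cKO cells and -1.27 (SE 0.22) in WT cells. None of the 10 measured septins passed in either genotype. Markers of endothelium, which also makes Gimap RNA, summed to 1174 to 1736 in V2 arrays and 906 to 1099 in DP arrays, with 0 of 5 called. Most of each sum was Pecam1, which leukocytes express too, at 9.86 to 10.58 on the log2 scale in V2 arrays and 9.41 to 9.75 in DP arrays. The other 4, Cdh5, Kdr, Emcn and Tek, lay between 4.54 and 6.86 in all 11 arrays, and the median difference of the list was -0.00494 in cKO cells and -0.02 in WT cells. Of 4 NK cell markers 1 was called, Eomes, higher by 1.05 in cKO cells and 1.0 in WT cells. The other 3, Ncr1, Klrb1c and Klra8, lay between 4.06 and 4.95 in all 11 arrays, below the lower quartile of each array. Of the 4 markers, 2 were above 0 and 2 below in cKO cells, and 1 was above and 3 below in WT cells. The median difference of this list was -0.04 in cKO cells and -0.15 in WT cells. The part of either cell type in the Gimap differences was not tested.

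The comparison of cKO with WT, which asks what loss of Sox4 does, called 0 of 8 members in V2 cells by limma, where 0% of all genes were called and 757 genes had an unadjusted p below 0.05, with 0 members among them. The cKO minus WT difference in V2 was 0.26 for Gimap1 (SE 0.16, 95% interval -0.09 to 0.60), 0.09 for Gimap3 (SE 0.29, interval -0.53 to 0.71), 0.06 for Gimap4 (SE 0.16, interval -0.28 to 0.40) and -0.07 for Gimap5 (SE 0.17, interval -0.43 to 0.30). It was 0.03 for Gimap6 (SE 0.18), -0.18 for Gimap8 (SE 0.16) and -0.02 for Gimap9 (SE 0.19), and Gimap7 differed by less than 0.01 (SE 0.15). Every adjusted p was 0.999. For 0 of 8 members did the V2 cKO arrays lie wholly above or below the V2 WT arrays, against 3.45% of all genes. The γδ markers summed to 4647 to 8259 in V2 cKO arrays and 11602 to 12357 in V2 WT arrays.

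In DP cells limma called 0 of 8 members too, where 0.0253% of genes (5) were called and 535 had an unadjusted p below 0.05, with 0 members among them. Gimap9 differed by -0.47 (SE 0.25, interval -1.01 to 0.07), with 9.54 and 9.52 in DP cKO arrays against 10.12 and 9.88 in DP WT arrays. The difference was 0.46 for Gimap3 (SE 0.37, interval -0.34 to 1.26), 0.26 for Gimap4 (SE 0.20, interval -0.19 to 0.70) and -0.35 for Gimap5 (SE 0.22, interval -0.83 to 0.12). It lay between -0.12 and -0.19 for Gimap1, Gimap6, Gimap7 and Gimap8. The 2 cKO arrays lay apart from the 2 WT arrays for 4 members, above for Gimap3 and Gimap4 and below for Gimap5 and Gimap9, which with so few arrays was true of 29.8% of all genes. All 8 adjusted p-values were 1. The cKO effect in V2 minus that in DP ranged from -0.37 (Gimap3, SE 0.47) to 0.45 (Gimap9, SE 0.32), with 0 members and 0% of genes called and 372 genes at an unadjusted p below 0.05. These intervals limit how large a change could be missed, and do not show that the genotypes were equal.

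**Figure D4:**
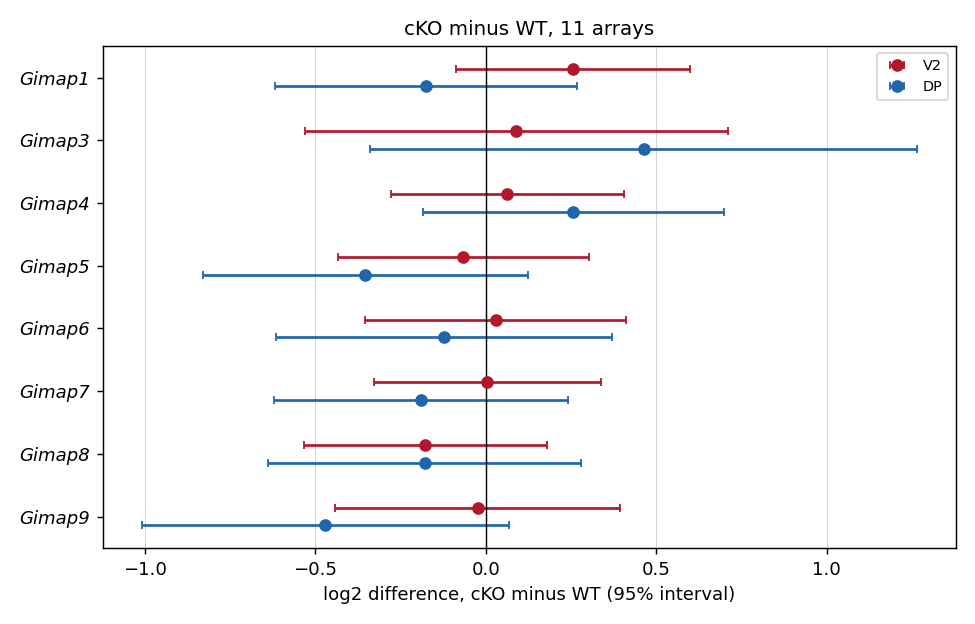
cKO minus WT difference in log2 intensity (horizontal axis) for each Gimap gene (vertical axis) in V2 and DP cells, with 95% intervals not adjusted for the number of genes, 11 arrays. All 16 intervals include 0.

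Within V2 the arrays fell apart by the way their titles are written, a comparison made after seeing the data. Gimap3 was lower in V2imm than in immV2 arrays by a difference of -2.07 (SE 0.29, limma adjusted p = 0.0017), and Gimap4 by -0.74 (SE 0.16, 1.67-fold, adjusted p = 0.0263). Gimap3 was 6.08, 6.97, 7.09 and 6.95 in the V2imm arrays, against 8.87, 9.49 and 8.21 in the immV2 arrays. All 8 members had a difference below 0, with a median of -0.33 beside 0.08 over all genes, and 2 were called, where 2.5% of genes were called (1.4% lower and 1.1% higher). The other 6 ran from -0.55 (Gimap5, SE 0.17, adjusted p = 0.127) to -0.14 (Gimap7, SE 0.15). For Gimap3, Gimap4 and Gimap5 every V2imm array was below every immV2 array, as for 5.93% of all genes.

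Other genes differed between the title sets as well. Of 17 maturation and egress genes 6 were lower in V2imm, among them S1pr1 (-1.94, SE 0.28), Itgb7, an integrin (-1.88, SE 0.30), and Klf2, a transcription factor that drives S1pr1 (-1.40, SE 0.21). Cd24a, the gene of the sorting antigen HSA, was higher (1.40, SE 0.32, adjusted p = 0.038). The sets overlapped for Cd24a: V2imm arrays ran from 11.61 to 12.31, and the immV2 WT array was at 11.67. Only the immV2 cKO arrays, at 9.46 and 10.38, lay below the V2imm arrays. Of 9 macrophage and dendritic cell markers 4 were higher in V2imm, Cd74, H2-Aa, Lyz2 and Adgre1, and the list summed to 1008 to 5095 in V2imm arrays and 539 to 884 in immV2 arrays. The part of these cells, of the maturation state and of any batch in the Gimap difference was not tested. With all 13 arrays Gimap3 differed by -1.34 (limma adjusted p = 0.243) and Gimap4 by 0.26 (adjusted p = 0.863), with 0 members and 1.56% of genes called. At an unadjusted p below 0.05 there were 2 of 8 members, and 3852 of the 19752 genes.

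The genotype difference in Gimap3 was also taken within each set. In V2imm, cKO arrays differed from WT arrays by -0.50 (SE 0.28, limma adjusted p = 1). There V2 cKO replicate 4 was at 6.08, while V2 cKO replicate 5 at 6.97 lay between the WT arrays at 7.09 and 6.95, so the difference rests on 1 array. In immV2 the WT group is 1 array, assumed to vary like the arrays of the other groups. The difference there was 0.97 (SE 0.34), which did not pass the threshold. The immV2 minus V2imm difference of these effects was 1.46 (SE 0.44, adjusted p = 1), which did not pass the threshold. In these fits 0 members were called, and at an unadjusted p below 0.05 there were 0 in V2imm and 1, Gimap3, both in immV2 and for the difference. Over all genes, 0.0253% were called in V2imm, 0.0456% in immV2 and 0.00506% for the difference. In the same immV2 arrays Cd24a was 10.38 and 9.46 in cKO, against 11.67 in WT, and S1pr1 was 10.86 and 11.54 in cKO, against 9.71 in WT. For Cd24a and S1pr1 the within-set difference in immV2, against the same lone WT array, was -1.75 (SE 0.39, adjusted p = 0.241) and 1.49 (SE 0.36, adjusted p = 0.341).

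**Figure D5:**
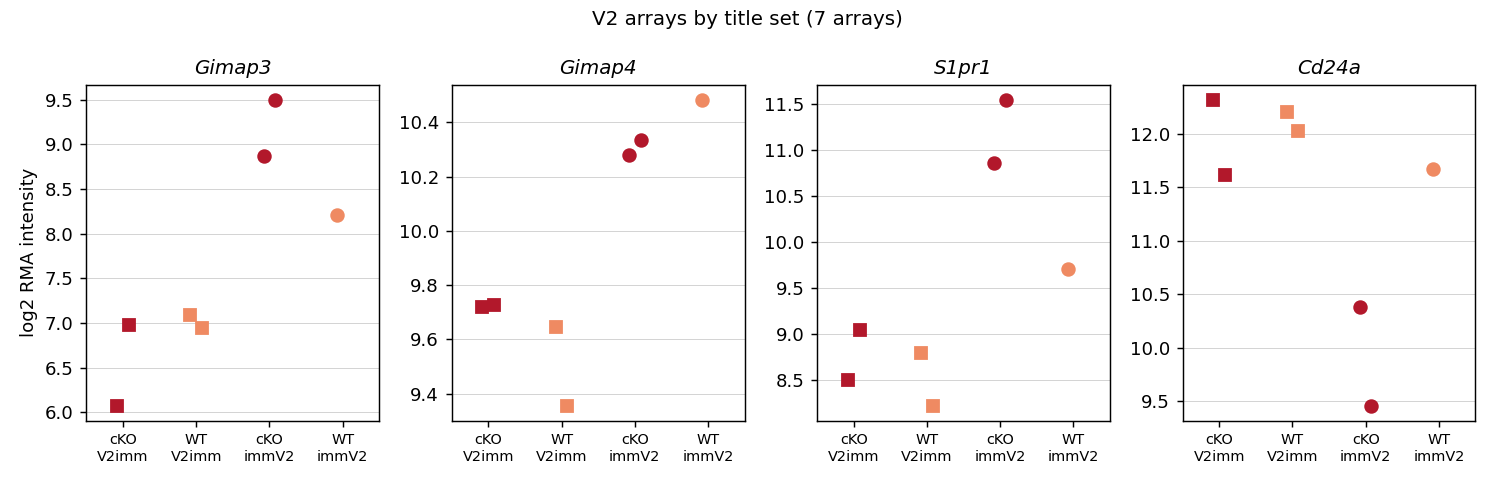
Log2 RMA intensity (vertical axes, not starting at 0) of Gimap3, Gimap4, S1pr1 and Cd24a in the 7 V2 arrays, with cKO and WT of the V2imm set (squares) left of cKO and WT of the immV2 set (circles). Gimap3 and Gimap4 are lower in all 4 V2imm arrays than in the 3 immV2 arrays, and S1pr1 likewise.

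Across the 11 arrays the Gimap genes varied together only in part. Pearson's r between Gimap3, Gimap4 and Gimap5 was 0.840 to 0.950 for the 3 pairs, and over all 28 pairs of members it ran from -0.395 to 0.950, Gimap9 lying between -0.395 and 0.318 with the others. The arrays form population and title-set clusters, so r largely restates those splits and carries no p. The 5 genes most like the mean of the 8 members were Gm8995 (r = 0.985), Cst7, an inhibitor of proteases (0.981), Cd7, a T and NK cell surface protein (0.979), Irf9, a factor of the interferon response (0.978), and Anxa6, an annexin (0.977). That mean is of log2 values as they stand, so it mostly follows the members of widest range, Gimap3, Gimap4 and Gimap5. The genes listed need not resemble the other members. The closest gene to Gimap4 was Atp8b4 (0.996), to Gimap3 Tgfb3 (0.986) and to Gimap5 Cd7 (0.982). For the other members the closest gene had an r of 0.877 to 0.951.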

How the data were processed

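RNA was hybridised to Affymetrix arrays. The authors deposited linear intensities of probe sets, ranging over 6.16 to 23800. Per the submitters' processing notes, Affymetrix Power Tools and RMA (background correction, normalisation and probe summary) were used. Array medians spanned 122.2 to 137.2. Intensities were log2 transformed here. The platform annotation names 1 gene for 21425 of the 24922 probe sets, and a gene with several was represented by its brightest, giving 19752 genes. Arrays have no read depth.

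The members and lists were chosen with earlier results of these data known. Groups came from sample titles. The fit used limma 3.58.1 (R 4.3.3) with an intensity trend, 4 group means and a covariate for the V2 title set over 11 arrays. All tests are two-sided and adjusted over all genes (Benjamini-Hochberg), with 0.05 as threshold. Named genes were the members, the genes most like them, 5 neighbours on each side, the 4 genes of lowest p in each list, and list genes called in any comparison. Replicate numbers were not taken as pairs, which asked for a correlation over 0.1 in all 4 pairs of arrays sharing a number and title form. Deviations from the group means correlated at 0.273, -0.108, 0.179 and 0.524. Deviations from the fit with the title-set term correlated at -0.354, -0.223, 0.179 and -0.504. Fitting that term to so few V2 arrays itself pushes the correlations of the V2 pairs below 0. The values from that fit therefore cannot show that replicates were unpaired. Alternatives changed the arrays, covariate, normalisation, filter, probe sets, moderation, replicate block and title set. Figures used matplotlib 3.10.9 in Python 3.11.15.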

Additional observations from a re-analysis of the deposited data

Results flagged for a closer look

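Gimap3, Gimap4 and Gimap5 stood at V2 levels in an array outside the comparisons. In the array labelled DP cKO replicate 5 their log2 intensities were 7.19 for Gimap3, 9.56 for Gimap4 and 9.33 for Gimap5. The highest of the other 4 DP arrays had 5.78, 6.28 and 8.01. This array also carried γδ markers, given above, and its labelled group was kept. In V2 WT replicate 5 (immV2), the other array shown apart, the same genes read 5.85, 6.31 and 7.80.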

How the results depend on the processing

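The V2 minus DP differences of Gimap3, Gimap4 and Gimap5 kept their direction under every alternative run, and all 3 were called with any 1 of the 11 arrays left out. With 13 arrays as labelled, 0 members were called in both genotypes (7 genes in cKO and 11 in WT), with Gimap3 at 1.68 in cKO and 1.83 in WT and Gimap5 at 0.997 in cKO and 0.948 in WT. The 2 added arrays carry the other population's markers. Keeping genes above the median level left out Gimap3 and Gimap7, and so called 2 members in each genotype. Counts of genes called between the populations were 637 in cKO and 594 in WT without the title-set covariate, and 577 in cKO with the compared groups alone. Leaving out 1 array gave 480 to 1632 genes in cKO (480 and 544 without DP cKO replicates 3 and 4, 1632 without V2 cKO replicate 4 of V2imm). In WT it gave 477 to 1575 (1478 and 1575 without V2 cKO replicates 5 and 4 of V2imm, 606 without V2 WT replicate 4 of V2imm, 639 without V2 WT replicate 3 of immV2, 477 without DP WT replicate 3). The causes were not tested.

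For cKO against WT, 0 members were called under all alternatives run. Genes called in V2 numbered 13 after quantile normalisation, 1 above the median level, 6 with robust moderation, 6 with V2imm alone and 0 to 44 with 1 array left out (44 without V2 cKO replicate 5 of V2imm). In DP they numbered 0 with 13 arrays, 3 without the covariate, 9 after quantile normalisation, 0 with the DP arrays alone and 0 to 14 with 1 array left out (14 without V2 cKO replicate 4 or 5 of V2imm, 0 without DP WT replicate 5). For the difference of effects they numbered 0 to 4 with 1 array left out (4 without DP WT replicate 3).

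Taking the replicate number as a fixed replicate block gave 34 genes in V2, 8 in DP and 4 for the difference, and 0 members. As a random block (correlation -0.187) it changed no member's call. In deviations from the group means not every same-numbered pair went together, and whether replicates were paired was not settled, so the block is only a check.

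Several cKO effects changed sign, and so did some V2 cKO minus DP cKO differences, none of which had passed the threshold. Not all were near 0 in the 11 arrays: Gimap5 had a cKO effect of -0.35 in DP, and Gimap3 a difference of effects of -0.37. With 13 arrays the cKO effects that changed sign were Gimap5 at 0.33 in V2 and 0.28 in DP, and Gimap8 at 0.0036 in DP. For the difference of effects Gimap8 did so, at -0.022. Without the covariate Gimap5 was 0.026 and Gimap9 0.0097 in V2. Under the random block Gimap7 was -0.0046 in V2. Under the fixed block Gimap3 was -0.11 and Gimap9 0.042 in V2, Gimap6 0.11 and Gimap8 0.17 in DP, and Gimap5 -0.11, Gimap6 -0.11 and Gimap8 -0.38 for the difference. With V2imm alone, V2 cKO minus DP cKO was -0.12 for Gimap1 and 0.016 for Gimap9, the cKO effect in V2 was -0.50 for Gimap3, -0.20 for Gimap6, -0.031 for Gimap7 and 0.25 for Gimap9, and the difference was -0.077 for Gimap6 and -0.11 for Gimap8. With immV2 alone the cKO effect in V2 was -0.18 for Gimap4 and 0.19 for Gimap5, and the difference was 0.51 for Gimap3. With 1 array left out, V2 cKO minus DP cKO ran from -0.035 to 0.24 for Gimap1 and -0.12 to 0.063 for Gimap9. The cKO effect in V2 ran from -0.50 to 0.46 for Gimap3, -0.050 to 0.22 for Gimap4, -0.24 to 0.046 for Gimap5, -0.20 to 0.12 for Gimap6, -0.091 to 0.12 for Gimap7 and -0.22 to 0.25 for Gimap9. In DP it ran from -0.35 to 0.0997 for Gimap6, -0.48 to 0.098 for Gimap7 and -0.36 to 0.0025 for Gimap8. The difference ran from -0.077 to 0.37 for Gimap6, -0.093 to 0.48 for Gimap7 and -0.18 to 0.18 for Gimap8.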
